A study of Mus musculus with 6 samples.

Results

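The genes described here encode enzymes and receptors by which cells use up arginine and tryptophan and make, break down or sense adenosine. The 10 genes were chosen by name for these roles and are Nos2, Arg1, Arg2, Ass1, Ido1, Entpd1, Nt5e, Ada, Adora2a and Adora2b, and each was found once among the 54532 genes of the table. RNA was sequenced from mouse T cells co-cultured with ID8 cells, an ovarian cancer cell line of C57BL/6 origin. The ID8 cells of 3 libraries had first received cisplatin at 40 µM (cisplatin), and those of the other 3 libraries PBS (control). In both groups the T cells came from spleens of C57BL/6 mice aged 6 to 8 weeks, were isolated with a pan T-cell kit, kept with IL-2 at 10 ng/mL and stimulated through CD3 and CD28 on magnetic beads over 72 h before the co-culture. The labels do not say whether the 3 libraries of a group came from separate mice or cultures, so the p-values measure the spread between libraries, which may be technical.

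Arginine and tryptophan are shared resources that immune and tumour cells compete for. Nos2, the inducible nitric oxide synthase, and the arginases Arg1 and Arg2 draw on the same arginine, and Ass1 carries out the first step that turns citrulline back into arginine. Ido1 opens the pathway from tryptophan to kynurenine, whose products activate the aryl hydrocarbon receptor (AHR). Entpd1 (CD39) and Nt5e (CD73) cut extracellular ATP down to adenosine, Ada turns adenosine into inosine, and Adora2a and Adora2b are the receptors through which adenosine raises cyclic AMP and restrains T-cell activation. Depletion of arginine or tryptophan and a rise in adenosine are known ways of slowing T cells in tumours, and myeloid cells, tumour cells and regulatory T cells can all carry these enzymes.

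Values are FPKM, reads per gene normalized for gene length and library, and means are given ± SD with n = 3 libraries per group throughout. The libraries held 30606569 to 32169496 reads on genes, and replicates differed by more than counting noise (chi-square per degree of freedom 5.35 to 6.44). Transcripts of other cells were present beside those of T cells. The summed FPKM of 30 ID8 tumour-cell markers was 1790 to 1867 in the control libraries and 277 to 286 in the cisplatin libraries. Of the 22 tested, 19 were called lower (as defined below), where 12.8% of all tested genes were. Col3a1 of that list was at 0 in all 6 libraries. The summed FPKM of 16 myeloid markers was 94.5 to 101 in control and 164 to 185 with cisplatin. Of 13 tested, 8 were called higher, where 4.11% of all tested genes were. S100a8, S100a9 and Mrc1 averaged under 0.6 FPKM in each group. The summed FPKM of 10 B-cell markers was 1693 to 1781 in control and 3623 to 3699 with cisplatin. All 10 were higher by limma at an adjusted p-value under 0.05, where 27.5% of all tested genes were. Only 1 of the 10 was called higher, and their median log2 fold change was 0.60. All 26 T-cell identity markers were higher with cisplatin by limma at an adjusted p-value under 0.05, where 27.5% of all tested genes were. Only 1 of the 26 was called higher. Their summed FPKM was 2061 to 2190 in control and 3263 to 3336 with cisplatin. In such mixed RNA, fewer cells of a type and less RNA per cell cannot be told apart. The part of these other cells in the results that follow was not tested.

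Groups were compared by limma on log2(FPKM + 0.1) over 15874 genes, those averaging 0.5 FPKM or more across the 6 libraries, on a scale that understates the change of low genes. A gene was called if it differed at least 2-fold and its p-value, adjusted by the method of Benjamini and Hochberg, was under 0.05. Of the 10 genes, 9 were tested and Arg2 was too low. With cisplatin-pretreated ID8 cells, 2 of the 9 were called lower (Nos2 and Arg1), where 12.8% of all tested genes were called lower, and 0 were called higher by limma, where 4.11% were. At an adjusted p-value under 0.05 without the fold-change minimum, 5 were higher (Ada, Entpd1, Ido1, Ass1 and Adora2a), where 27.5% of all tested genes passed in that direction, and 2 were lower, where 29.0% did. The counts were also 5 and 2 at an unadjusted p-value under 0.05. In all, 7 of the 9 passed in either direction, where 56.5% of all tested genes did, and the other two, Nt5e and Adora2b, did not. The groups did not overlap for 8 of the 9 tested genes, as they did not for 64.2% of all tested genes. The median log2 fold change was 0.30 over the 9 genes and 0.03 over all tested genes.

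The scaling between libraries bears on every small difference here. The depth implied by the deposited FPKM was 1.03 to 1.05 times the reads on genes with cisplatin. In control it was 0.976 to 0.982 times. Centring each library on the T-cell identity markers assumes that these genes did not change. It moved the median log2 fold change of all tested genes from 0.03 to -0.57. Quantile normalization moved it to 0.16, and leaving out the scaling of FPKM for library depth moved it to 0.14. Changes are therefore given as deposited. The centred value is given for each of the 10 genes that was tested and for each other named gene that was higher, and the centring lowers the log2 fold change of every gene by the same amount.

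**Figure D1:**
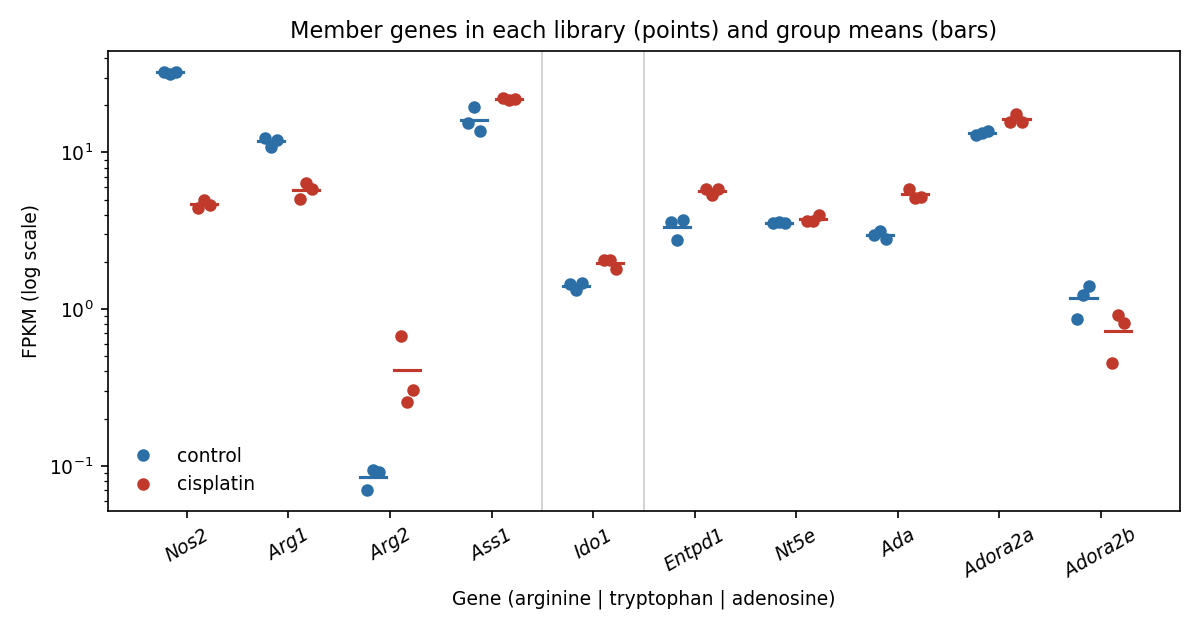
FPKM (log scale) of the 10 genes in each library, as points, for 3 control (blue) and 3 cisplatin (red) libraries, with group means as bars. Nos2 lies at 31.8 to 32.7 FPKM in control and at 4.39 to 4.97 FPKM with cisplatin, while Nt5e lies at 3.54 to 3.996 FPKM over all 6 libraries.

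Nos2 showed the largest difference of the 9 tested genes. Nos2 (ENSMUSG00000020826, chromosome 11 from 78920787 to 78960254, plus strand, GRCm38) makes nitric oxide and citrulline from arginine and is classically switched on by interferon-gamma and NF-κB. Its FPKM was 32.6, 31.8 and 32.7 in the control libraries and 4.39, 4.97 and 4.64 in the cisplatin libraries. Every cisplatin library lay far below every control library, and the spread within each group was small beside the gap. The mean fell from 32.4 ± 0.493 to 4.67 ± 0.288 FPKM, 6.94-fold lower, with a log2 fold change of -2.77 and a standard error of 0.05 (limma, adjusted p = 1.4e-07). It was -3.37 after the centring, and Nos2 was called lower in 17 of 17 alternative settings. In control Nos2 had the highest FPKM of the 10 genes, and with cisplatin it ranked sixth. For comparison, the median log2 fold change was -2.50 over the tested ID8 markers and 1.26 over the tested myeloid markers. It was 0.61 over the T-cell identity markers and 0.60 over the B-cell markers. Which cells the Nos2 reads came from was not tested.

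Arg1 (ENSMUSG00000019987, chromosome 10 from 24915221 to 24927484, minus strand), the cytosolic arginase, splits arginine into ornithine and urea. Its FPKM was 12.4, 10.8 and 12.1 in control and 5.05, 6.34 and 5.84 with cisplatin. The groups were clearly apart, with a mean of 11.8 ± 0.840 FPKM in control and 5.74 ± 0.651 FPKM with cisplatin. The log2 fold change was -1.03 with a standard error of 0.10 (limma, adjusted p = 1.3e-04), just past the 2-fold limit, and -1.63 after the centring. Its adjusted p-value stayed at or below 0.0018 in all 17 alternative settings, but the fold change was under 2 in 6 of them, among them the fits without cisplatin replicate 1 (log2 fold change -0.94) and without control replicate 1 (log2 fold change -0.99).

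Arg2 (ENSMUSG00000021125, chromosome 12 from 79130777 to 79156301, plus strand), the mitochondrial arginase, was close to the detection floor. Its FPKM was 0.0700, 0.0934 and 0.0913 in control, from 3, 4 and 4 reads, and 0.671, 0.254 and 0.302 with cisplatin, from 31, 12 and 14 reads. All 3 cisplatin libraries were above the control libraries, and cisplatin replicate 1 stood well above the other two. Per read on genes, the summed reads were 5.09-fold higher with cisplatin (exact 95% interval 2.64 to 10.8, counting error only), and 3.45-fold higher (1.65 to 7.73) without cisplatin replicate 1. Without the filter on low values its adjusted p-value from limma was 0.047. In the exons annotated by GENCODE M21, 285 bases of Arg2 are shared with Vti1b on the other strand, which had 24.2 ± 0.505 FPKM in control and 23.9 ± 2.46 FPKM with cisplatin. Whether the counting used strand is not given in the sources used here, so the level of Arg2 is uncertain.

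Ass1 (ENSMUSG00000076441, chromosome 2 from 31470207 to 31520672, plus strand), argininosuccinate synthase, lets cells rebuild arginine from citrulline. Its FPKM was 15.5, 19.4 and 13.6 in control and 22.3, 21.6 and 21.9 with cisplatin. The control libraries were widely spread and the cisplatin libraries tight, and the groups did not overlap. The log2 fold change was 0.45 with a standard error of 0.12 (limma, adjusted p = 0.017), which turned to -0.15 after the centring (limma, adjusted p = 0.30). The call on the p-value alone was lost without cisplatin replicate 1 (adjusted p = 0.0501) and without control replicate 1 (adjusted p = 0.053), both from limma. With cisplatin Ass1 had the highest FPKM of the 10 genes.

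Of 30 other genes of arginine metabolism, 25 were tested. By limma, 6 were called lower and 2 higher, where 12.8% and 4.11% of all tested genes were. Without the fold minimum 13 were lower and 5 higher, where 29.0% and 27.5% of all tested genes were. After the centring these counts were 23 and 2, where over all 15874 tested genes they were 10719 and 697. Their median log2 fold change was -0.25, against 0.03 over all tested genes. The largest falls were those of Gamt, which makes creatine from an arginine-derived precursor (34.9 ± 1.72 FPKM in control, 4.04 ± 1.01 FPKM with cisplatin), and Ddah1, which clears methylated arginines that inhibit nitric oxide synthases (12.0 ± 0.409 and 1.45 ± 0.266 FPKM). Their log2 fold changes were -3.11 and -2.98. Ddah2, of the same family, had a log2 fold change of -2.03. Slc7a2, a transporter that brings arginine into the cell, fell from 22.6 ± 0.805 to 5.99 ± 0.305 FPKM, with a log2 fold change of -1.90 (limma, adjusted p = 5.2e-07).
Gch1, the entry enzyme for the tetrahydrobiopterin that nitric oxide synthases need as a cofactor, fell from 5.64 ± 0.209 to 2.16 ± 0.237 FPKM, a log2 fold change of -1.35. Azin2, an antizyme inhibitor of the polyamine pathway, had a log2 fold change of -1.57. These 6 genes were called lower in each alternative setting in which they were tested. Asl, which completes the step begun by Ass1, had a log2 fold change of -0.62 (limma, adjusted p = 1.3e-04), opposite in sign to Ass1 as deposited. Of the genes for polyamine synthesis downstream of the arginases, Odc1 and Srm were called higher. Odc1, ornithine decarboxylase, rose from 26.3 ± 0.950 to 53.9 ± 1.11 FPKM, and Srm, spermidine synthase, from 13.6 ± 1.05 to 27.9 ± 2.32 FPKM. Their log2 fold changes were 1.03 and 1.04, and 0.43 and 0.44 after the centring, where neither was called although both adjusted p-values stayed under 0.05. Srm was also not called without cisplatin replicate 1 or without control replicate 3, since its change lies at the 2-fold limit. Amd1, which supplies the aminopropyl donor, had a log2 fold change of 0.22 (-0.38 after the centring), and Sms, spermine synthase, had 0.00069 (-0.60 after the centring), and neither was called. The other transporter with a high level, Slc7a1, had a log2 fold change of -0.22. Among the most abundant genes of the list that were not called, the log2 fold changes were 0.18 for the antizyme Oaz1 (-0.42 after the centring), -0.03 for Nosip, which binds nitric oxide synthases, -0.65 for the antizyme inhibitor Azin1 and -0.27 for the ornithine aminotransferase Oat. Among the genes too low to test, the endothelial synthase Nos3 had 37, 32 and 13 reads in control and 5, 3 and 2 reads with cisplatin, and Otc was at 0 in all 6 libraries.

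Ido1 (ENSMUSG00000031551, chromosome 8 from 24584136 to 24597009, minus strand), the interferon-inducible enzyme that begins tryptophan breakdown, was present at a low level. Its FPKM was 1.44, 1.32 and 1.46 in control and 2.07, 2.05 and 1.81 with cisplatin, from 72 to 82 and 107 to 124 reads. The cisplatin libraries were all above the control libraries. The means were 1.41 ± 0.0800 and 1.97 ± 0.144 FPKM, and the log2 fold change was 0.46 with a standard error of 0.12 (limma, adjusted p = 0.014). It was -0.14 after the centring (limma, adjusted p = 0.34), and the adjusted p-value was 0.052 by limma without cisplatin replicate 2.

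Of 27 other genes of tryptophan metabolism and its sensing, 17 were tested. By limma, 3 were called lower and 1 higher, where 12.8% and 4.11% of all tested genes were. Without the fold minimum 6 were lower and 4 higher, where 29.0% and 27.5% of all tested genes were. After the centring these counts were 13 and 3, where over all 15874 tested genes they were 10719 and 697. The median log2 fold change was -0.00036. The lower calls included the receptor for kynurenines and a target of that receptor. Ahr, the aryl hydrocarbon receptor, fell from 10.3 ± 0.347 to 3.07 ± 0.173 FPKM, and Cyp1b1, a monooxygenase that AHR induces, from 158 ± 4.35 to 22.9 ± 0.372 FPKM. The log2 fold changes were -1.71 (adjusted p = 1.7e-06) and -2.79 (adjusted p = 5.9e-08), both from limma. Tiparp, another AHR target, had a log2 fold change of -0.84 (limma, adjusted p = 1.9e-04). Cyp1a1 and Ahrr, also AHR targets, were too low to test, and their groups overlapped. Cyp1a1 had 6, 4 and 0 reads in control and 10, 0 and 10 reads with cisplatin. Ahrr had 32, 43 and 46 reads in control and 35, 65 and 46 reads with cisplatin. Maoa, a monoamine oxidase, had a log2 fold change of -1.21.
Ahr, Cyp1b1 and Maoa were called lower in 17 of 17 alternative settings. Kmo, which hydroxylates kynurenine, rose from 2.03 ± 0.0487 to 4.44 ± 0.238 FPKM, a log2 fold change of 1.09 that was 0.49 after the centring, where it was not called. Haao, further down the same branch, had 25.7 ± 1.20 FPKM in control and 25.7 ± 1.98 FPKM with cisplatin. The 95% interval of its log2 fold change was -0.16 to 0.16, and the log2 fold change was -0.60 after the centring. Wars, the tryptophanyl-tRNA synthetase, and Slc7a5, a transporter of large neutral amino acids including tryptophan, had log2 fold changes of 0.73 and 0.89 (0.13 and 0.29 after the centring). The partner chain of Slc7a5, Slc3a2, had 0.27 (-0.34 after the centring), and Arnt, the partner of AHR, had -0.32. Ido2 and Tdo2, the other enzymes able to start the pathway, averaged under 0.6 FPKM in each group and were not tested.

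Entpd1 and Ada, which act at the beginning and the end of the adenosine pathway, were higher with cisplatin by less than 2-fold. RefSeq's promoter table (GRCm38.p6) held entries for 5 of the 10 genes, namely Ass1, Nt5e, Entpd1, Ada and Adora2b. The 250 bases before each start site were searched on both strands for the κB consensus, the core of the interferon-stimulated response element, TTCNNNGAA (the gamma-activated sequence), ACGTG (HIF binding) and GCGTG (AHR binding). The stretches below are those of the ectonucleotidase and the deaminase that were higher, with the match in capitals.
Ada, chr2:163750290-163750349, minus strand: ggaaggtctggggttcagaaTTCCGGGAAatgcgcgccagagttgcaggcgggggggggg
Entpd1, chr19:40612306-40612365, plus strand: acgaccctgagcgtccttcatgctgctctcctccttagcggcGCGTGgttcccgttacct
The capitals mark a TTCNNNGAA match 90 to 82 bases before the Ada start and a GCGTG match 18 to 14 bases before an Entpd1 start. The same letters occur in 7.02% and 28.2% of the 32851 promoters of the table, so the matches describe the sequence only. GCGTG was also present before Ass1, Nt5e and Adora2b, and ACGTG, found in 16.6% of the promoters, before Ass1. The windows of the 5 genes held no match to the κB consensus (3.90% of the promoters) or to the interferon-stimulated core (2.98%). Entpd1 had 2 starts in the table, and the window of its other start held no match to any motif searched.

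Entpd1 (ENSMUSG00000048120, chromosome 19 from 40612366 to 40741602, plus strand) encodes CD39, which turns extracellular ATP and ADP into AMP. Its FPKM was 3.61, 2.78 and 3.68 in control and 5.81, 5.32 and 5.86 with cisplatin. The lowest cisplatin library was above the highest control library. The log2 fold change was 0.75 with a standard error of 0.12 (limma, adjusted p = 0.0017), and 0.15 after the centring (limma, adjusted p = 0.32).

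Nt5e (ENSMUSG00000032420, chromosome 9 from 88327197 to 88372092, plus strand) encodes CD73, which makes adenosine from AMP. Its FPKM was 3.56, 3.60 and 3.54 in control and 3.64, 3.64 and 3.996 with cisplatin. The groups were separated by a hair, with cisplatin replicate 3 alone standing higher. The log2 fold change was 0.07 (95% interval -0.10 to 0.24, standard error 0.07, limma adjusted p = 0.42). It turned to -0.53 after the centring (adjusted p = 4.7e-04) and was 0.27 after quantile normalization (adjusted p = 0.014), both from limma, so its direction rests on the scaling.

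Ada (ENSMUSG00000017697, chromosome 2 from 163726584 to 163750239, minus strand) encodes adenosine deaminase, which removes adenosine and is needed for lymphocyte survival. Its FPKM was 2.98, 3.13 and 2.82 in control and 5.86, 5.11 and 5.22 with cisplatin. All 3 cisplatin libraries were well above the control libraries. The means were 2.98 ± 0.158 and 5.40 ± 0.407 FPKM, a log2 fold change of 0.84 with a standard error of 0.08 (limma, adjusted p = 1.6e-04). It was the only one of the 5 higher genes that still passed as higher after the centring, at a log2 fold change of 0.24 (limma, adjusted p = 0.046), and after quantile normalization its log2 fold change of 1.02 passed the 2-fold limit.

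The adenosine receptors differed in level and in behaviour. Adora2a (ENSMUSG00000020178, chromosome 10 from 75316877 to 75334784, plus strand), the high-affinity receptor and the main one on T cells, had an FPKM of 12.9, 13.3 and 13.7 in control and 15.7, 17.6 and 15.7 with cisplatin. The cisplatin libraries were all higher, by a log2 fold change of 0.30 with a standard error of 0.06 (limma, adjusted p = 0.0041), which turned to -0.30 after the centring (limma, adjusted p = 0.0022). Adora2b (ENSMUSG00000018500, chromosome 11 from 62248984 to 62266453, plus strand), the low-affinity receptor, had an FPKM of 0.867, 1.23 and 1.41 in control and 0.452, 0.916 and 0.819 with cisplatin, from 27 to 80 reads. The groups overlapped, and the log2 fold change of -0.64 had a 95% interval of -1.38 to 0.10 (limma, adjusted p = 0.12). After the centring it was -1.24 (limma, adjusted p = 0.0080).

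**Figure D2:**
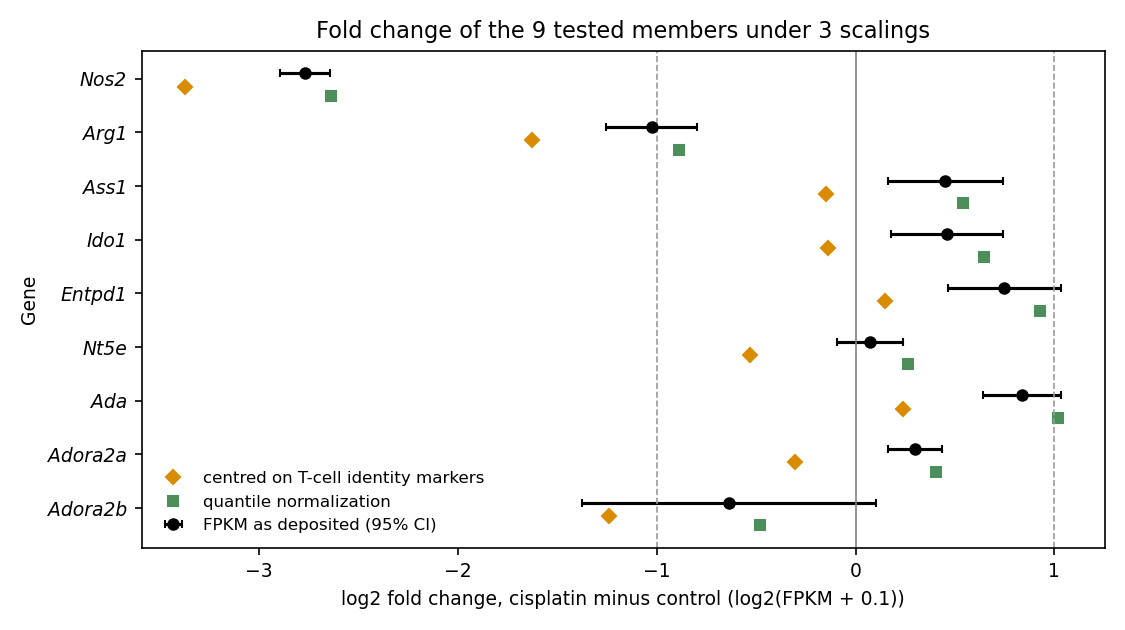
Log2 fold change (cisplatin minus control) of the 9 tested genes on the FPKM as deposited (black points, bars are 95% confidence intervals), after centring on T-cell identity markers (orange diamonds) and after quantile normalization (green squares); dashed lines mark 2-fold. Nos2 stays at or below -2.64 under the 3 scalings, while Ass1, Ido1, Nt5e and Adora2a change sign with the centring.

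Of 43 other genes of the adenosine pathway, 27 were tested. By limma, 2 were called lower and 1 higher, where 12.8% and 4.11% of all tested genes were. Without the fold minimum 8 were lower and 14 higher, where 29.0% and 27.5% of all tested genes were. Their median log2 fold change was 0.23. After the centring 18 were lower and 1 was higher, where 10719 and 697 of all 15874 tested genes were. The direction of most of these genes thus rests on the scaling. The called genes act beside the main route from ATP to adenosine. Ampd3, an AMP deaminase that diverts intracellular AMP to IMP, fell from 28.2 ± 1.42 to 3.13 ± 0.377 FPKM, a log2 fold change of -3.13 (limma, adjusted p = 6.8e-07). Enpp1, an ectoenzyme that makes AMP and pyrophosphate from ATP, fell from 6.62 ± 0.329 to 2.18 ± 0.166 FPKM, a log2 fold change of -1.56. Both were called lower in every alternative setting in which they were tested. Alpl, an alkaline phosphatase that can also dephosphorylate AMP, rose from 1.10 ± 0.120 to 2.42 ± 0.394 FPKM, a log2 fold change of 1.07 that was 0.47 after the centring. It was not called without cisplatin replicate 2 or without control replicate 2.
Of the genes that were not called, Cd38, an ectoenzyme that consumes NAD, had a log2 fold change of 0.68, and Dpp4, the surface protein CD26 that binds adenosine deaminase, had 0.49. After the centring these were 0.08 and -0.11. Slc28a2, a concentrative nucleoside transporter, had 28.9 ± 1.23 FPKM in control and 40.0 ± 0.511 FPKM with cisplatin, a log2 fold change of 0.47 that turned to -0.13 after the centring (limma, adjusted p = 0.020). The equilibrative transporter Slc29a1 had a log2 fold change of -0.77 (limma, adjusted p = 4.1e-05). The nucleotidase Nt5c had a log2 fold change of 0.32 and Ahcy, which splits S-adenosylhomocysteine, one of 0.12 (-0.28 and -0.48 after the centring). The ATP receptors P2rx7 and P2ry2 had 0.44 and -0.77 (-0.16 and -1.37 after the centring). The receptors Adora1 and Adora3 averaged under 0.2 FPKM in each group.

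**Figure D3:**
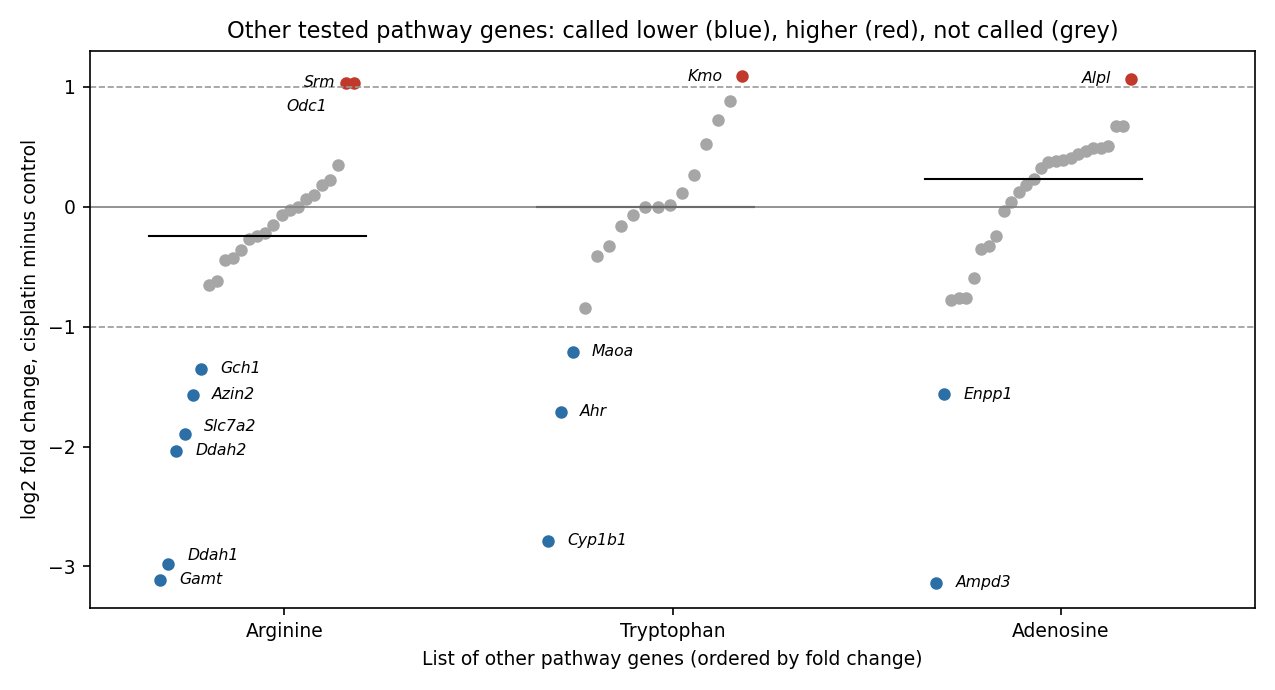
Log2 fold change (cisplatin minus control) of the tested genes of the 3 lists of other pathway genes, ordered within each list; blue points were called lower, red points higher and grey points were not called, black bars are list medians and dashed lines mark 2-fold. The arginine list has 6 lower and 2 higher calls, the tryptophan list 3 and 1, and the adenosine list 2 and 1.

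Ratios between genes within a library do not change when a library is scaled by a single factor, though quantile normalization can shift them. The FPKM of Nos2 was 2.62, 2.94 and 2.71 times that of Arg1 in the control libraries and 0.870, 0.783 and 0.795 times with cisplatin. The FPKM of Arg1 thus exceeded that of Nos2 only in the latter. The ratio of Nos2 to Ass1 was 2.11, 1.64 and 2.40 in control and 0.197, 0.230 and 0.212 with cisplatin. The ratio of Arg1 to Ass1 was 0.804, 0.558 and 0.886 in control and 0.227, 0.294 and 0.267 with cisplatin. For adenosine, Entpd1 to Nt5e was 1.01, 0.772 and 1.04 in control and 1.60, 1.46 and 1.47 with cisplatin. Ada to Nt5e was 0.837, 0.870 and 0.796 in control and 1.61, 1.40 and 1.31 with cisplatin. Adora2a to Adora2b was 14.9, 10.8 and 9.67 in control and 34.7, 19.2 and 19.2 with cisplatin, a ratio that carries the low counts of Adora2b. Arg1 to Arg2 was 178, 116 and 132 in control and 7.53, 25.0 and 19.3 with cisplatin, and rests on the few reads of Arg2. None of these 7 ratios overlapped between the groups. Single genes did not overlap for 8 of the 9 tested here and for 64.2% of all tested genes, and ratios of other gene pairs were not examined. By exact permutation, two-sided and on log2 ratios, each had p = 0.1, the smallest that 3 libraries against 3 allow, and 0.1 again after adjustment over the 7 ratios.

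**Figure D4:**
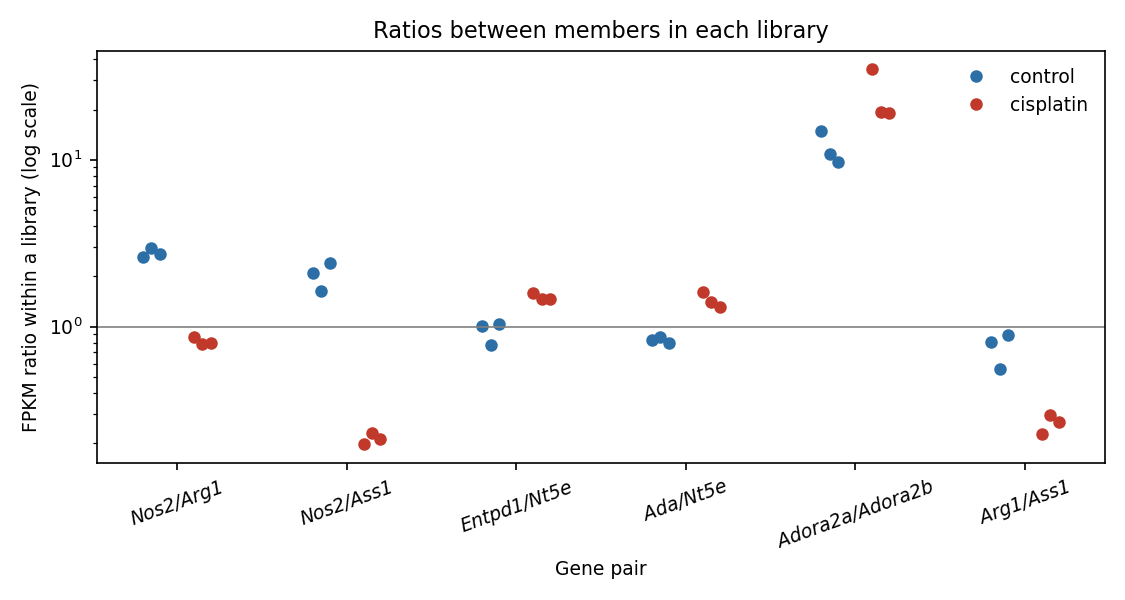
FPKM ratio of 2 genes within each library (log scale) for 6 gene pairs, control libraries in blue and cisplatin libraries in red; the grey line marks equal FPKM. Nos2 to Arg1 lies above 1 in the 3 control libraries and below 1 in the 3 cisplatin libraries, and Ada to Nt5e does the reverse.

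The order of the levels, in FPKM, changed accordingly. In control it ran Nos2 (32.4), Ass1 (16.2), Adora2a (13.3), Arg1 (11.8), Nt5e (3.57), Entpd1 (3.35), Ada (2.98), Ido1 (1.41), Adora2b (1.17) and Arg2 (0.0849). With cisplatin it ran Ass1 (21.9), Adora2a (16.4), Arg1 (5.74), Entpd1 (5.66), Ada (5.40), Nos2 (4.67), Nt5e (3.76), Ido1 (1.97), Adora2b (0.729) and Arg2 (0.409). Neighbours whose libraries overlapped were Ass1 and Adora2a, Nt5e and Entpd1, Entpd1 and Ada, and Ido1 and Adora2b in control, and Arg1 and Entpd1, Entpd1 and Ada, and Adora2b and Arg2 with cisplatin.

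Among signals and factors known to induce these genes, Cebpb alone was called. Of 20 such regulators, 18 were tested. By limma, 1 was called lower and 0 higher, where 12.8% and 4.11% of all tested genes were. Without the fold minimum 5 were lower and 10 higher, where 29.0% and 27.5% of all tested genes were. After the centring 13 were lower and 1 was higher, where 10719 and 697 of all 15874 tested genes were. The called gene was Cebpb, a transcription factor that drives Arg1 and Nos2 in myeloid cells, which fell from 41.9 ± 1.99 to 15.2 ± 1.71 FPKM, a log2 fold change of -1.46 (limma, adjusted p = 1.4e-05). The interferon-gamma receptor chain Ifngr1 and the factor Irf1, which act upstream of Nos2 and Ido1, had log2 fold changes of 0.84 and 0.42 (0.23 and -0.18 after the centring). The second receptor chain Ifngr2 had a log2 fold change of -0.46. The NF-κB subunits Nfkb1 and Rela had log2 fold changes of 0.16 and -0.14 (-0.44 and -0.74 after the centring). Hif1a had 0.41, and the cytokines Tnf and Il1b had 0.56 and 0.60, which became -0.19, -0.04 and -0.0029 after the centring. Ifng itself was too low to test, with 8, 11 and 10 reads in control and 18, 43 and 34 reads with cisplatin.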

How the data were processed

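Poly-A RNA libraries of co-cultured T cells were sequenced by the authors, who removed low-quality and adaptor-containing reads. The paper's methods name LifeScope for alignment and gene counts, whereas the submitters' processing notes name fastp, HISAT2 2.0.5, featureCounts 1.5.0-p3 and the build mm10, so which made the table is uncertain. The authors deposited FPKM values for 54532 genes, with 0 further sample columns, and tested raw counts with DESeq2. Gene coordinates in the table equal those of GENCODE M21 (GRCm38) for 53585 of 54495 shared genes. FPKM times gene length gave whole reads (within 0.1) for 100% of values above 0, which set the depth. The main test was limma 3.58.1 (R 4.3.3; lmFit, eBayes with trend) on log2(FPKM + 0.1), since the table holds no counts. Python 3.11.15, scipy 1.17.1 and matplotlib 3.10.9 were used for the rest. Library groups came from the sample titles. The steps were tested on simulated data. Alternatives were other pseudocounts, filters and scalings, no trend, limma's voom on the rebuilt reads, leaving out each library and the replicate block. A further one, chosen after seeing the data, was FPKM without its scaling for library depth, which is reads per gene length.

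The 10 genes and the lists (212 symbols, 0 absent) were chosen with earlier results of these data known. Named are the 10 genes, each called gene of the lists, and the most highly expressed others by role. Amd1, Sms, Nos3, Tiparp, Cyp1a1, Ahrr, Asl, Adora1, Adora3, Ifng, Otc, Ido2 and Tdo2 were named after their values were seen. For each marker list, counts and summed levels are given. 1 gene of the regulator list is not reported here by name.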

Additional observations from a re-analysis of the deposited data

How the results depend on the processing

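Of 148 fits of the 9 tested genes under alternatives, 138 kept their direction and their side of the p-value threshold. The count of called genes moved with Arg1, Ada and Arg2. It was 1 lower with a pseudocount of 1, quantile normalization, voom on the rebuilt reads or FPKM without its scaling for library depth. It was 1 to 2 lower when each library was left out, the 1 being the fits without cisplatin replicate 1 or without control replicate 1. After centring on the T-cell identity markers it was 3 lower, with Adora2b added. It was 1 higher without the filter on low values (Arg2), with quantile normalization (Ada) and with voom (Arg2), and 0 when each library was left out. After that centring the log2 fold changes of Ass1 (-0.15), Ido1 (-0.14), Nt5e (-0.53) and Adora2a (-0.30) were reversed. The other adenosine genes had 3 calls, which became 5 without the filter on low values or with voom, 1 with a minimum mean of 5 FPKM and 6 after the centring. The filters change the genes tested (42, 36 and 16 of the list against 27), and the centring lowers every gene alike.

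With the replicate number as a block, 2 genes were called lower and 0 higher, the same counts as without it. The labels do not tie same-numbered libraries together, and their deviations from the group means correlated at 0.023, -0.063 and -0.021 for the 3 numbers, so the numbers were not taken as pairs. Genes near the floor of 3 reads, such as Arg2 in control, are limited by depth.

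Over all tested genes, 2034 were called lower and 653 higher. The counts were 3891 and 135 after the centring, 1790 and 979 with quantile normalization, 1451 and 311 with a pseudocount of 1, and 2423 and 1127 with voom, which tested 18541 genes.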
